A study of Drosophila melanogaster with 6 samples.

Results

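Peaks of Dam-Simba2 were set against peaks of Dam-Simba1 from the same batch, region by region, in Drosophila melanogaster larval brains. A Simba2 peak and a Simba1 peak of 1 batch were called paired when they overlapped by 1 bp or more on the chromosome arms 2L, 2R, 3L, 3R, 4 or X of the dm6 build. All other peaks on the arms were called unpaired. The 4 peak lists held 95996 peaks, and 92031 of them lay on the 6 arms and were used. These were 21727 peaks of Simba2 and 16837 of Simba1 in batch 1, and 33465 of Simba2 and 20002 of Simba1 in batch 2. A difference between the proteins was kept only where it had the same direction in both batches.

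The series examined a pair of microproteins, Simba1 and Simba2, which its title links to Wingless (Wg) signalling while quiescent neural stem cells (NSCs) re-enter the cell cycle. Each was fused to Dam and profiled by DamID in 3 groups: UAS-Dam-Simba2, UAS-Dam-Simba1 and the control UAS-Dam, with 1 library of each group in each of 2 batches. All groups carried grh-Gal4 and tub-Gal80ts, a driver used here for NSCs together with a temperature-sensitive repressor. A 4 h egg collection stayed at 18 °C for 44 h, until hatching, and the larvae then spent 24 h at 29 °C before dissection. The labels do not say whether the batches came from separate crosses or animals, so a p-value here reflects the spread among these libraries alone. DNA came from brains in which grh-Gal4 sets the cells that express the fusion, and the peak lists, which record occupancy and not transcripts, cannot check that those cells were NSCs.

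In DamID, the bacterial adenine methylase Dam is tethered to a protein and methylates GATC sequences near the places where that protein meets chromatin. Methylated DNA is then cut out, amplified and sequenced, and untethered Dam gives the background of open chromatin. Wg is the main Wnt ligand of Drosophila. When it binds Frizzled receptors, the beta-catenin Armadillo escapes destruction and acts in the nucleus with the factor Pangolin, encoded by pan, and the adaptors Legless and Pygopus.

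After filtering, the libraries held 1069703 tags for Simba2 and 1191497 for Simba1 in batch 1, and 1267661 for Simba2 and 1506081 for Simba1 in batch 2. The Dam controls held 868080 tags in batch 1 and 1321104 in batch 2. The Simba2 and Simba1 lists of a batch were called by the authors against the same Dam library, so the overlap within a batch includes whatever that control contributed. The tag size in the headers was 133 and 130 bp in the Simba2 libraries (batches 1 and 2), against 150 and 149 bp in the Simba1 libraries. Pileup is the authors' read coverage at the summit, the highest point of a peak. It was used only as a percentile within its own list, where 100 is the highest peak. Intervals on shares are exact Clopper-Pearson 95% intervals and cover counting error only.

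Simba2 and Simba1 shared most of the Simba1 peaks of batch 1 and fewer of batch 2, and Simba2 had the larger number of peaks without a partner in both. In batch 1, 11066 Simba2 peaks were paired (50.9%, interval 50.3 to 51.6) and 11041 Simba1 peaks were paired (65.6%, interval 64.9 to 66.3). In batch 2, 8780 Simba2 peaks were paired (26.2%, interval 25.8 to 26.7) and 8805 Simba1 peaks were paired (44.0%, interval 43.3 to 44.7). The mean paired share was 38.6% ± 17.5 in Simba2 and 54.8% ± 15.2 in Simba1 (SD, n = 2; exact two-sided permutation p = 0.667, where 0.333 is the smallest p that 2 libraries against 2 allow). That test leaves out the match by batch, and within batches the difference was -14.6 and -17.8 points (batches 1 and 2). Pairing is nearly one to one, so the lower share in Simba2 goes with its longer list by construction. With lists of equal length the gap was -0.0891 points in batch 1 and -0.374 in batch 2, a value near 0 that equal lengths fix in advance. Unpaired peaks numbered 10661 in Simba2 and 5796 in Simba1 in batch 1, and 24685 in Simba2 and 11197 in Simba1 in batch 2. Between batches of Simba1, 26.9% of batch 1 peaks and 22.7% of batch 2 peaks overlapped. Between batches of Simba2 these shares were 51.9% and 33.7%. Simba1 peaks met the longer Simba2 list of the other batch more often, in 54.5% (batch 1) and 28.0% (batch 2). For Simba1, the sharing within a batch thus exceeded that between its own batches. Simba2 went the other way: 50.9% and 26.2% of its peaks were paired within a batch (batches 1 and 2), against 51.9% and 33.7% between its batches.

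The overlaps were mostly broad. The shared stretch had a median of 375 bp in batch 1 and 324 bp in batch 2, and few pairs lay near the limit of 1 bp: 79 pairs (0.705%) in batch 1 and 105 (1.18%) in batch 2 shared 50 bp or less. On the other side of that limit, 40 unpaired Simba2 and 40 unpaired Simba1 peaks of batch 1 lay within 50 bp of a peak of the other protein, as did 94 Simba2 and 77 Simba1 peaks of batch 2. A peak that bridged several peaks of the other protein was rare in either direction. This held for 144 Simba2 and 169 Simba1 peaks in batch 1 and for 137 Simba2 and 110 Simba1 peaks in batch 2. For the measurements at pairs each peak was used once, in the pair with the longest mutual overlap, which left 10896 pairs in batch 1 and 8673 in batch 2.

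Where both proteins had a peak, the summits lay close together and neither protein was shifted to one side. Only overlapping peaks were measured, so their lengths bound the distance and closeness follows in part from the pairing. The median distance between the Simba2 and Simba1 summits was 80 bp in batch 1 (quartiles 30 and 171) and 84 bp in batch 2 (quartiles 32 and 186). The Simba2 summit lay to the right, at the higher coordinate, in 5358 pairs of batch 1 and to the left in 5392, and in batch 2 these counts were 4260 and 4313. The signed median was 0 bp in both batches. Summits were within 50 bp of each other in 37.1% of pairs in batch 1 and 35.0% in batch 2, and within 250 bp in 85.8% and 83.1%. At the far end, 10% of pairs were more than 304 bp apart in batch 1 and more than 352 bp in batch 2.

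These distances were about those between batches of the same protein. Simba2 summits of batch 2 and batch 1 were a median of 76 bp apart over 11122 pairs, and Simba1 summits of the 2 batches 92 bp apart over 4489 pairs. Simba2 of batch 1 and Simba1 of batch 2, which have separate Dam controls, were 87 bp apart over 5545 pairs, and Simba2 of batch 2 and Simba1 of batch 1 were 80 bp apart over 9084 pairs. No distance between the proteins fell outside the range of 76 to 92 bp set by the same-protein pairs. Higher peaks had closer summits: over 5 equal groups of pairs, from low to high mean pileup rank, the median distance was 116, 97, 85, 68 and 47 bp in batch 1 and 116, 108, 81, 72.5 and 58 bp in batch 2. Pairs on chromosome 4, the small and largely heterochromatic autosome, were 57 bp apart in batch 1 and 61 bp in batch 2.

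**Figure D1:**
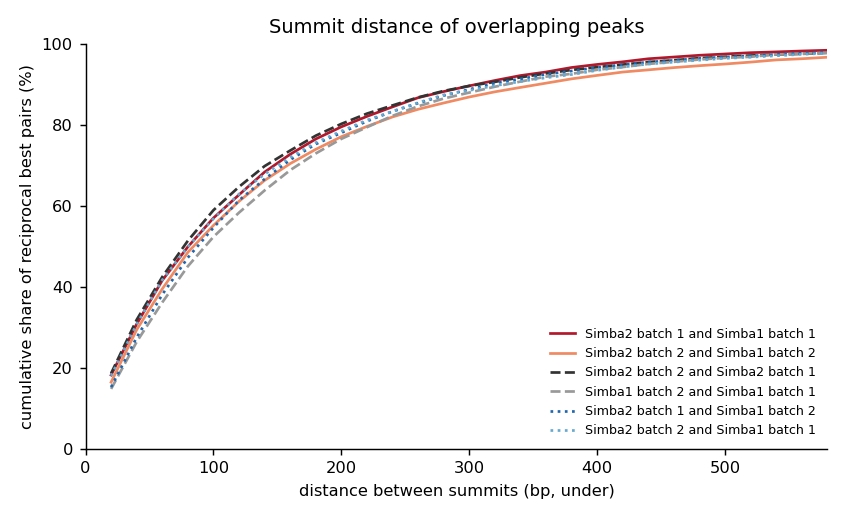
Cumulative share of overlapping peak pairs (%) against the distance between their summits (bp), with 1 line for each of the 6 combinations of 2 libraries: Simba2 and Simba1 within a batch (solid), the same protein in both batches (dashed) and different proteins across batches (dotted). The lines run together, with medians of 76 to 92 bp.

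Simba2 peaks were longer than the Simba1 peaks they overlapped, in both batches. The median length at pairs was 500 bp in Simba2 and 465 bp in Simba1 in batch 1, and 500 bp in Simba2 and 403 bp in Simba1 in batch 2. The median difference within a pair, Simba2 minus Simba1, was 24 bp in batch 1 (quartiles -74 and 131) and 75 bp in batch 2 (quartiles -39 and 242). Simba2 had the longer peak in 6279 pairs of batch 1 (57.6%) and 5883 of batch 2 (67.8%), while Simba1 had the longer one in 4577 (42.0%) and 2766 (31.9%). The extra length was spread over both sides: at the left edge the Simba2 peak reached out by a median of 10 bp in batch 1 and 36 bp in batch 2, and at the right edge by 9 and 36 bp. The Simba2 peak enclosed the whole Simba1 peak in 29.6% of pairs in batch 1 and 38.8% in batch 2, and the Simba1 peak enclosed the Simba2 peak in 18.7% and 12.2%.

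The batch 1 difference was no larger than that between batches of 1 protein. At overlapping peaks of the same protein, the median difference of batch 2 minus batch 1 was 34 bp in Simba2 and -14 bp in Simba1. Across batches, where no Dam control is shared, Simba2 remained the longer one, by 28 bp (Simba2 of batch 1, Simba1 of batch 2) and by 53 bp (Simba2 of batch 2, Simba1 of batch 1). The direction was therefore common to all 4 combinations of a Simba2 and a Simba1 library. The shortest peak that MACS lists equals the fragment length of the library, which was 279 bp in both Simba2 libraries, against 277 and 272 bp in the Simba1 libraries of batches 1 and 2. Tag size also differed between the proteins in both batches, and its part in the length was not tested.

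Peak length moved with rank. Among pairs whose ranks were within 5 points of each other, the Simba2 peak was longer by a median of 22 bp in batch 1 (482 bp in Simba2 and 448 bp in Simba1, 3675 pairs) and by 76 bp in batch 2 (490 bp in Simba2 and 383 bp in Simba1, 2005 pairs). Where Simba2 ranked more than 5 points higher the difference was 105 bp in batch 1 and 194 bp in batch 2. Where Simba1 ranked more than 5 points higher it was -55 bp in batch 1 and -15 bp in batch 2. In the lowest of the 5 groups of pairs by mean rank Simba2 exceeded Simba1 by 9 bp in batch 1 and 12 bp in batch 2, and in the highest by 26 and 127 bp. The sign was the same at all 5 rank levels of both batches. It was also the same on each of the 6 arms, with differences of 17 to 33 bp in batch 1 and 60 to 80 bp in batch 2, with X highest in batch 1 and level with 2L as the highest in batch 2. Pairs within 1000 bp of a gene end went opposite ways relative to the rest: 20 bp against 26 bp elsewhere in batch 1, and 108 bp against 63 bp in batch 2. That contrast was not kept.

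**Figure D2:**
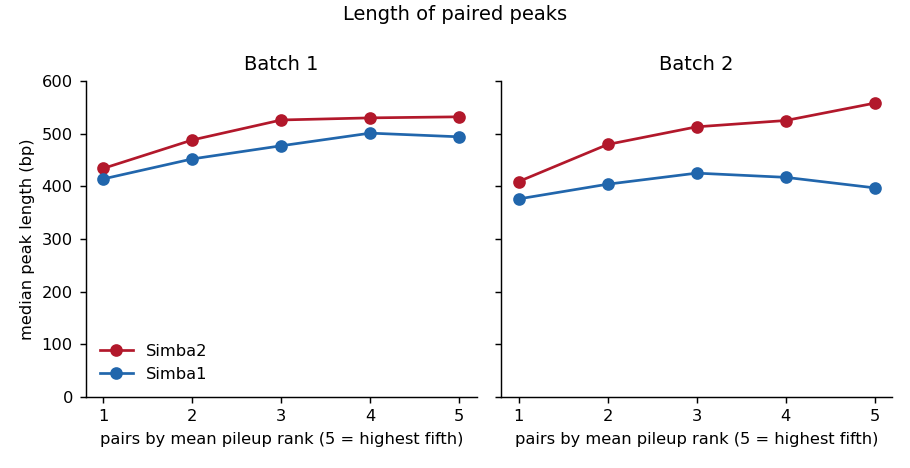
Median peak length (bp, axis from 0) of Simba2 and Simba1 at paired peaks, for 5 equal groups of pairs ordered on the mean pileup rank of the pair, 1 panel for each batch. The Simba2 line is above the Simba1 line at all 5, by medians of 9 to 30 bp within pairs in batch 1 and 12 to 127 bp in batch 2.

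In the full lists pileup rank gave no difference that held in both batches, and under other settings its direction depended on the setting. At pairs, the median percentile was 62.6 in Simba2 and 58.5 in Simba1 in batch 1, and 48.1 in Simba2 and 56.6 in Simba1 in batch 2. The median difference was 0.534 points in batch 1 and -6.03 points in batch 2, and the list lengths on which these percentiles rest differ. Simba2 was the higher one in 52.5% of pairs in batch 1 and 35.6% in batch 2. Pairs were closer in rank in batch 1, where 54.6% were within 10 points, than in batch 2, where 37.3% were. Both batches went to Simba1 with lists of equal length, with medians of -1.51 and -15.9 points (batches 1 and 2). They did so too at q of 0.05 or lower (-1.01 and -11.6 points) and at q of 0.001 or lower (-0.973 and -14.9 points). Both went to Simba2 when peaks were ranked by the authors' fold enrichment (2.08 and 6.46 points) or by -log10 p (2.28 and 0.898 points).

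Region by region, in the full lists, the batches did not share a direction. A pair was present in both batches, at overlapping positions, in 2442 regions. The sign of the rank difference was the same in both batches in 1147 of them (47.0%, interval 45.0 to 49.0). Simba2 was higher in both batches in 444 regions and Simba1 in 703, while 838 had Simba2 higher in batch 1 alone and 457 in batch 2 alone. Across these 2442 regions, which share libraries and controls, Spearman's rho between the batches' differences was -0.0563. Large differences of 25 points or more in both batches had the same sign in 18 regions for Simba2 and 22 for Simba1, and opposite signs in 50 regions with Simba2 higher in batch 1 and 17 with Simba1 higher there. Simba2 had the longer peak in both batches in 1063 regions (43.5%) and Simba1 in 252 (10.3%). Over the same regions Simba2 was longer in 58.6% in batch 1 and 74.6% in batch 2, and Simba1 in 41.2% and 25.1%, and the products of these shares, 43.7% for Simba2 and 10.3% for Simba1, are close to the shares seen in both. The batches thus did not coincide beyond their overall shares, and the size of the difference in 1 batch did not follow that in the other (rho = -0.0353). The side of the Simba2 summit was the same in both batches in 50.4% of 2398 regions. All 4 summits lay within 100 bp in 492 regions (20.1%).

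**Figure D3:**
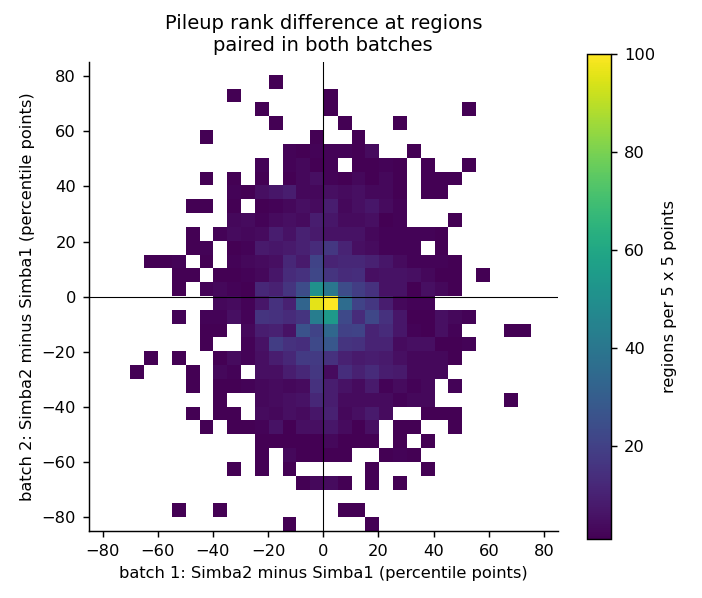
Difference in pileup percentile (Simba2 minus Simba1, points) in batch 1 (x axis) and batch 2 (y axis) at the 2442 regions paired in both batches, with colour giving the number of regions per square of 5 by 5 points. The cloud is centred near 0 in batch 1 and below 0 in batch 2 and shows little slope (rho = -0.0563).

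The highest regions paired in both batches were chosen by their mean percentile over the 4 libraries, so their high and close percentiles follow from that choice. They were a peak inside myo, which encodes a TGF-beta family ligand (4:695325-696013), inside the long non-coding RNA gene lncRNA:acal (2R:10546408-10546982) and inside CG15673 (2R:21612200-21612741). At myo the percentile was 99.7 and 99.7 in Simba2 (batches 1 and 2), against 99.8 and 99.9 in Simba1. The authors' fold enrichment there was 1.91 and 1.99 in Simba2, against 3.90 and 1.82 in Simba1. The other 5 were a region without a gene (3L:8225452-8226146), part of the ribosomal RNA array (X:23281004-23281700), a region in cold and next to Ipk2 and Ptth (2L:574235-574898), a second region without a gene (3L:25132446-25133031) and a region in uzip (2R:25019327-25019943). The array is a repeat, so reads there may come from any copy. Over the 8 regions the fold ran from 1.49 to 5.85 in Simba2 and from 1.46 to 5.61 in Simba1. Ranked by fold instead of pileup, the same 8 differed between the proteins by -72.7 points (myo, batch 1) to 91.7 points (uzip, batch 2).

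At grh, from which the driver takes its name and which encodes a transcription factor of NSCs, the best peak was paired in both batches (2R:17831828-17832411). Its summit was at 17832042 and 17832143 in Simba2 (batches 1 and 2), against 17832043 and 17832099 in Simba1. The Simba2 and Simba1 summits of batch 1 were thus adjacent bases. The percentile was 94.0 and 98.3 in Simba2, against 97.1 and 99.3 in Simba1, and the fold 4.6 and 6.66 in Simba2, against 5.72 and 4.65 in Simba1. Around this shared peak, Simba2 had 3 and 11 unpaired peaks over the gene, against 1 and 0 in Simba1.

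A few regions had a clearly higher rank in Simba2 in both batches. They were picked on these values and are given as a description. The largest difference was in lqf, which encodes the endocytic adaptor epsin (3L:7537577-7539533), where the percentile was 70.1 and 86.6 in Simba2 (batches 1 and 2), against 18.1 and 17.5 in Simba1. The fold there was 7.63 and 7.88 in Simba2, against 3.55 and 3.93 in Simba1, and the length 960 and 1716 bp in Simba2, against 461 and 887 bp in Simba1. Oatp26F, which encodes an organic anion transporter, followed (2L:6626877-6627496) with percentiles of 75.9 and 63.7 in Simba2, against 24.2 and 17.5 in Simba1. The rest were tei with CG18368 (2R:13669173-13669644), a region without a gene (2R:19904456-19906892), puf, a ubiquitin protease gene (3R:24640739-24641427), and cv-c, a RhoGAP gene (3R:14396205-14396900). Over these 6 regions the gap was 39.2 to 69.1 points in each batch. The authors' fold was higher in Simba2 at all 6 in both batches.

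Other regions ranked higher in Simba1 in both batches. The largest gap was inside Pde9, a cyclic nucleotide phosphodiesterase gene (X:12875954-12876671), where the percentile was 2.33 and 4.27 in Simba2 (batches 1 and 2), against 53.6 and 80.8 in Simba1. The fold was 2.42 and 1.88 in Simba2, against 7.40 and 6.0 in Simba1. Both Simba2 peaks had the least length possible, 279 bp, against 718 and 498 bp in Simba1. Next came a region near CG18744 and CG3014 (3R:7798733-7799686), a region in CG34354 (3R:28217585-28218411) and a region in rk, the gene of the bursicon receptor (2L:13989912-13990826). At rk the percentile was 19.8 and 14.8 in Simba2, against 58.5 and 94.6 in Simba1. A region beside the lysyl oxidase-like gene Loxl2 (2R:21788265-21789698) and one without a gene (2R:1474733-1475572) made up the 6. All 12 of these regions kept their sign under every alternative ranking or threshold in which they were still paired in both batches. There were 2 such alternatives at rk, 3 at Pde9 and, the most among them, 5 at lqf. The regions were picked for large differences and the alternatives use the same peaks, so the kept signs are no further support.

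Unpaired Simba2 peaks lay in gene spans more often than unpaired Simba1 peaks, in both batches. The share with the summit inside a gene span was 67.7% (interval 66.8 to 68.6) in Simba2 and 64.8% (63.5 to 66.0) in Simba1 in batch 1, and 70.7% (70.1 to 71.2) in Simba2 and 63.1% (62.2 to 64.0) in Simba1 in batch 2. The 2 Simba2 libraries lay about as far apart as the proteins did in batch 1, and their intervals do not meet either. The means were 69.2% ± 2.09 in Simba2 and 63.9% ± 1.17 in Simba1 (SD, n = 2; exact two-sided permutation p = 0.333, the smallest possible). The difference was 2.94 points in batch 1 and 7.56 points in batch 2. Paired peaks, which are the same places in both lists, stood at 67.2% in Simba2 and 67.2% in Simba1 in batch 1, and at 65.0% in Simba2 and 65.3% in Simba1 in batch 2.

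Near gene ends the direction was the same in both batches but the size rested on batch 2. Gene ends take in promoters and 3′ ends alike, because the gene table gives no strand. The share of unpaired summits within 1000 bp of a gene end was 28.2% (interval 27.3 to 29.0) in Simba2 and 28.0% (26.8 to 29.2) in Simba1 in batch 1. In batch 2 it was 34.2% (33.6 to 34.8) in Simba2 and 21.4% (20.7 to 22.2) in Simba1. The differences were 0.193 and 12.8 points, and that of batch 1 was smaller than its counting error. The means were 31.2% ± 4.27 in Simba2 and 24.7% ± 4.63 in Simba1 (SD, n = 2; exact two-sided permutation p = 0.333). Within 500 bp the difference in batch 1 was -1.47 points and in batch 2 9.23 points, so no common direction was left at that distance. The median distance from an unpaired summit to a gene end was 3174 bp in Simba2 and 3428 bp in Simba1 in batch 1, and 2260 bp in Simba2 and 4391 bp in Simba1 in batch 2. More than 20000 bp from any gene end lay 11.8% of unpaired peaks in Simba2 and 13.0% in Simba1 in batch 1, and 10.7% in Simba2 and 16.2% in Simba1 in batch 2.

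**Figure D4:**
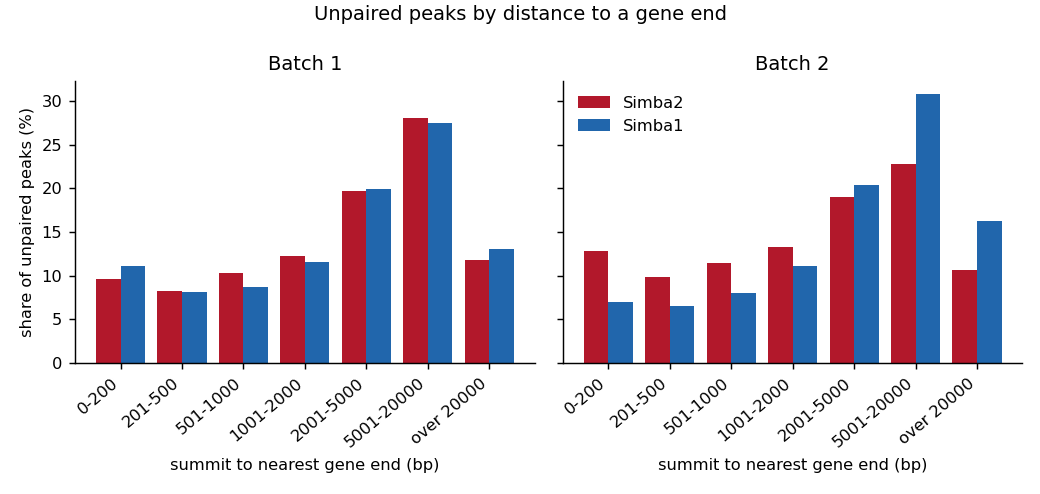
Share of unpaired peaks (%, bars from 0) of Simba2 and Simba1 by distance from summit to the nearest gene end (bp), 1 panel for each batch. In batch 1 the bars are nearly level (9.66% in Simba2 and 11.2% in Simba1 within 200 bp), and in batch 2 Simba2 is higher near gene ends (12.8% in Simba2 and 7.0% in Simba1 within 200 bp).

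The arms differed little. Of unpaired peaks, arm 2R held 19.2% and 19.8% in Simba2 (batches 1 and 2), against 18.5% and 18.8% in Simba1, arm 2L 17.9% and 16.9% in Simba2, against 18.2% and 17.7% in Simba1, and arm 3L 20.7% and 21.1% in Simba2, against 21.2% and 21.4% in Simba1. These 3 arms had a common direction in both batches, with mean differences of 0.815, -0.584 and -0.364 points (exact two-sided permutation p of 0.333, 0.667 and 0.333, n = 2). Arms 3R, 4 and X went opposite ways in the 2 batches. Few unpaired peaks were 2000 bp or longer: 12 of 10661 and 17 of 24685 in Simba2 (batches 1 and 2), against 0 of 5796 and 4 of 11197 in Simba1. The longest measured 31390 and 12589 bp in Simba2, against 1422 and 2171 bp in Simba1. Among paired peaks there were 23 of 11066 and 25 of 8780 in Simba2, against 4 of 11041 and 5 of 8805 in Simba1. Such long peaks were thus not particular to the unpaired lists.

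An unpaired peak was usually not a near miss. The median gap from an unpaired peak to the nearest peak of the other protein was 2509 bp in Simba2 and 1856 bp in Simba1 in batch 1, and 2546 bp in Simba2 and 1482 bp in Simba1 in batch 2. Gaps of 250 bp or less were found for 3.71% of Simba2 and 5.52% of Simba1 peaks in batch 1 and for 4.18% and 7.12% in batch 2. The Simba1 lists, to which the Simba2 gaps were measured, are the shorter ones. A q of 0.05 or lower was reached by 40.7% and 54.7% of unpaired peaks in Simba2 (batches 1 and 2), against 43.8% and 36.6% in Simba1. That order was not the same in both batches. Of unpaired Simba2 peaks, 41.1% of batch 1 and 30.4% of batch 2 overlapped a Simba2 peak of the other batch. Of unpaired Simba1 peaks, 23.3% and 12.6% overlapped a Simba1 peak of the other batch. A peak of the other protein in the other batch was met by 22.8% and 24.7% of unpaired Simba2 peaks (batches 1 and 2), against 39.8% and 16.4% of unpaired Simba1 peaks. Unpaired Simba1 peaks thus met a Simba2 peak of the other batch more often than a Simba1 peak, and the Simba2 lists are the longer ones.

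Unpaired peaks recurred at the same place in both batches more often for Simba2. There were 2970 such regions for Simba2 and 625 for Simba1, with each peak used once. Of the unpaired peaks themselves, some of which met more than 1 peak, 2991 of batch 1 (28.1%) and 2985 of batch 2 (12.1%) overlapped an unpaired peak of the other batch in Simba2, against 629 (10.9%) and 629 (5.62%) in Simba1. At equal list lengths they numbered 1360 for Simba2 and 950 for Simba1. The summits of the batches were a median of 66 bp apart in the Simba2 regions and 106 bp in the Simba1 regions. These regions are a subset of the unpaired peaks, with 70.5% of Simba2 regions (interval 68.8 to 72.1) and 63.8% of Simba1 regions (59.9 to 67.6) inside a span. Within 1000 bp of a gene end lay 32.9% of Simba2 regions (31.2 to 34.7) and 24.0% of Simba1 regions (20.7 to 27.5). A q of 0.001 or lower in both batches was reached by 206 Simba2 regions and 7 Simba1 regions.

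The highest recurrent Simba2 regions were near the top of both Simba2 lists, at or above the percentile 99.3, and had folds of 1.96 to 3.86. They lay at knrl, a nuclear receptor gene (3L:20620562-20620928), in Dscam1, which encodes a cell recognition protein of neurons (2R:7378884-7379323), in Mondo, a sugar-sensing transcription factor gene, next to crc (2L:21309648-21309990), and at Aps (3L:10898859-10899377). At Dscam1 the fold was 2.70 in batch 1 and 3.86 in batch 2, and the summits of the batches were 43 bp apart. The rest lay in CG31717 between the JNK gene bsk and the receptor kinase gene Ror (2L:10250523-10250967), in the corepressor gene Sin3A (2R:12587588-12588012), near lncRNA:CR43704 and bowl (2L:3771209-3771636), and in an interval where the chromatin remodeller gene Mi-2 and the elongation factor gene Su(Tpl) overlap (3L:19896018-19896447). At Sin3A the fold was 2.39 in batch 1 and 3.52 in batch 2 and the summits were 2 bp apart. These regions were chosen on their rank, so their height is no finding. They were also chosen because the batches' peaks, 293 to 511 bp long, overlapped. Summits of the batches within 68 bp of each other follow in part from that choice.

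The highest recurrent Simba1 regions were the top 8 of 625, against 2970 recurrent regions for Simba2. A smaller pool gives a lower top 8 in part by construction. In their own lists these Simba1 regions ranked lower, from the percentile 77.6 upward. They were a region without a gene on X (X:23221935-23222768), regions in aru (2L:865595-866138), in the Arf exchange factor gene step (2L:21753892-21754181) and without a gene on 3R (3R:5144852-5145639), and one in lncRNA:Hsromega, the heat shock RNA omega gene (3R:21315107-21315947). At step the fold was 3.32 in batch 1 and 3.26 in batch 2. The remaining regions lay in hbs, a cell adhesion gene, next to Obp51a (2R:15025564-15025888), in the T-box gene Doc2 (3L:9014757-9015338) and in Lac, a septate junction gene (2R:12462621-12463165). At Doc2 the fold was 2.60 in batch 1 and 4.41 in batch 2, with summits 12 bp apart. Several of the 8 were weak calls: in batch 2 the -log10 q was 0.615 at aru, 0.473 at lncRNA:Hsromega and 1.04 at Lac, all short of a q of 0.05, and the X region had a fold of 1.41. A peak below the threshold in Simba2 cannot be told from none at these places.

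Genes were then counted by their unpaired peaks within the span or 1000 bp beyond it. Simba2 had unpaired peaks in both batches, and Simba1 none in either, at 2228 of 17684 genes (12.6%). The reverse held at 156 genes (0.882%). The difference followed list length in part: at equal list lengths there were 1191 for Simba2 and 433 for Simba1. The 2228 Simba2 genes had a median span of 2303 bp and were protein coding in 84.8%. The 156 Simba1 genes had a median span of 1216.5 bp and were protein coding in 75%, and all genes on the arms had 1710 bp and 78.7%. The measure counts unpaired peaks alone: a paired peak of some batch was also present at 1244 of the Simba2 genes (55.8%) and 60 of the Simba1 genes (38.5%), beside 54.5% of all genes.

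Counting genes by direction gave a higher background. Simba2 had more unpaired peaks than Simba1 in both batches at 3257 genes (18.4%) and fewer in both at 239 (1.35%). With lists of equal length these counts were 1593 (9.01%) and 754 (4.26%). Each gene list below is to be read against these shares, and long genes collect more peaks of either protein. The lists had median spans of 1315 to 36409 bp.

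Of 32 Wg/Wnt genes, Simba2 had more unpaired peaks in both batches at 13 (40.6%) and fewer at 0, with a median difference of 1.75 peaks per batch beside 0.5 over all genes. Their median span of 10860.5 bp is well above that of all genes, and at equal list lengths there were 8 (25%) and 2. Muscle markers, with a median span of 9105 bp, had a share of 45.5% and neuron markers one of 41.7%, so this count does not set the pathway apart. Among the 13 were the receptor genes fz, fz2 and fz3, the ligand genes Wnt4, Wnt6 and Wnt10, the glypican gene dlp, the kinase genes gish and sgg, and the nuclear factors arm, lgs, hyx and CtBP. Peak numbers at fz were 6 and 21 in Simba2 (batches 1 and 2), against 4 and 5 in Simba1, and at fz2 10 and 17 in Simba2, against 4 and 6 in Simba1. The ligand gene wg had 3 and 0 unpaired peaks in Simba2 and 0 and 0 in Simba1, and dsh, which relays the signal from the receptor, had none in any library. The TCF gene pan had 0 and 14 in Simba2, against 2 and 5 in Simba1, so its direction changed with the batch.

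Unpaired Simba2 peaks in both batches with no unpaired Simba1 peak were found at 5 of the 32 Wg/Wnt genes, beside 12.6% of all genes. These 5 are given as a description. At arm, the beta-catenin gene, the unpaired peaks with the highest percentile of both batches overlapped (X:1899027-1899856 in batch 1 and X:1898933-1899758 in batch 2) and also reached Ldaf1. Their percentiles were 99.7 and 99.5 and their folds 1.91 and 2.27. A paired peak of Simba2 and Simba1 lay elsewhere at arm in each batch. At lgs, the gene of the adaptor Legless, the highest unpaired peaks lay apart (4:441008-441319 in batch 1 and 4:436839-437661 in batch 2), with folds of 2.81 and 4.09. At fz3 the unpaired Simba2 peaks numbered 3 and 7 (batches 1 and 2), with highest folds of 3.29 and 3.50 at separate places. hyx, which encodes the Parafibromin homologue, and Wnt10 completed the 5. Overlap of the highest unpaired peaks between batches was thus seen at arm, and not at lgs, fz3 or hyx.

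Genes of NSCs showed both directions. Of 15 NSC identity and asymmetric division genes, Simba2 had more unpaired peaks in both batches at 5 (33.3%) and fewer at 2 (13.3%), beside 18.4% and 1.35% of all genes. At equal list lengths there were 2 and 2. The 5 were wor, dpn, insc, klu and pros, and the 2 were aPKC and pins. At wor, a Snail family transcription factor gene of NSCs, there were 1 and 4 unpaired Simba2 peaks (batches 1 and 2), against 0 and 0 in Simba1, with a highest fold of 1.97 in batch 1 and 3.12 in batch 2. At dpn, the Hes-type repressor gene of NSCs, there were 1 and 2 in Simba2, against 0 and 0 in Simba1. The NSC genes ase and mira had opposite directions in the 2 batches: ase had 0 and 3 unpaired peaks in Simba2, against 1 and 0 in Simba1, and mira had 0 and 2 in Simba2, against 1 and 0 in Simba1.

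Temporal factors, the genes that set the age-dependent identity of NSCs, had the highest share of the 12 lists in full and also the longest spans (median 36409 bp). Simba2 had more unpaired peaks in both batches at 11 genes of 19 (57.9%) and fewer at 1, beside 18.4% and 1.35% of all genes. Among the 11 were chinmo, Imp, Syp, br, EcR and grh. With lists of equal length these counts were 5 (26.3%) and 1, and the highest share was then that of insulin and TOR signalling (30.4%). chinmo, which encodes a factor of young NSCs, had 7 and 16 unpaired peaks in Simba2 (batches 1 and 2), against 2 and 0 in Simba1. The exception was Eip93F, a late temporal factor gene named after its values were seen, with 2 and 3 in Simba2, against 5 and 16 in Simba1. D, the Sox gene Dichaete, had 1 and 1 in Simba2, against 0 and 0 in Simba1.

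Insulin and TOR signalling wakes NSCs in response to feeding. Simba2 had more unpaired peaks in both batches at 11 genes of 23 (47.8%) and fewer at 0, beside 18.4% and 1.35% of all genes. The median span was 7354 bp, beside 1710 bp for all genes. Muscle markers, with a median span of 9105 bp, had a share of 45.5% and likewise 0 genes with fewer. At equal list lengths there were 7 insulin and TOR genes (30.4%) and 0, beside 9.01% and 4.26% of all genes and 18.2% and 9.09% of muscle markers. At 7 of the 11 there was no unpaired Simba1 peak (7 of 23 listed genes, beside 12.6% of all genes): chico, ImpL2, S6k, gig, Akt, Tsc1 and Ilp6. At chico, the insulin receptor substrate gene, the highest unpaired peaks had percentiles of 92.1 and 96.7 and folds of 3.76 and 1.60 (batches 1 and 2). At Ilp6, an insulin-like peptide gene, the percentiles were 89.4 and 98.6, and at Akt, the kinase gene, 85.7 and 97.2. At ImpL2, which encodes a secreted binder of insulin-like peptides, they were 92.1 and 87.9. At these 4 genes the highest unpaired peaks of the 2 batches did not overlap. At InR, the insulin receptor gene, the unpaired peaks numbered 4 and 12 in Simba2, against 0 and 1 in Simba1.

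The Hippo pathway, which holds NSCs in quiescence, had more unpaired Simba2 peaks in both batches at 7 genes of 16 (43.8%) and fewer at 0. All genes had 18.4% and 1.35%. With lists of equal length there were 4 (25%) and 0, beside 9.01% and 4.26% of all genes. The median span of the Hippo genes was 7191.5 bp, and muscle markers, with 9105 bp, had 45.5% in full and 18.2% at equal lengths. The core kinase gene hpo had 3 and 3 in Simba2 (batches 1 and 2), against 0 and 0 in Simba1, and the cofactor gene mats 1 and 2, against 0 and 0. At mats the highest unpaired peaks of both batches overlapped (3R:22423230-22423605 in batch 1 and 3R:22423059-22423638 in batch 2) and reached pinta. Genes of quiescence and reactivation had more at 4 of 15 (26.7%, beside 18.4% of all genes) and fewer at 0, and 2 and 1 at equal list lengths. At Nrt, the neurotactin gene, the highest unpaired Simba2 peaks overlapped as well (3L:16768287-16768639 in batch 1 and 3L:16768239-16769146 in batch 2), with percentiles of 96.1 and 96.9. Khc-73, a kinesin gene, Patronin, whose product caps microtubule minus ends, and msps were the other 3. Notch pathway genes had more at 3 of 14 (21.4%, near the 18.4% of all genes) and fewer at 0, and 2 and 0 at equal list lengths. Ser, the gene of the ligand Serrate, had 1 and 10 in Simba2, against 0 and 0 in Simba1.

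Markers of other cell types gave neuron and muscle shares within the range of the NSC lists, and a lower glia share that rests on 1 gene of 10. Median spans were 27248.5 bp for neuron, 9105 bp for muscle and 5538 bp for glia markers, beside 1710 bp for all genes. Neuron markers had more unpaired Simba2 peaks in both batches at 5 genes of 12 and fewer at 3, beside 18.4% and 1.35% of all genes. With lists of equal length these were 2 and 5, beside 9.01% and 4.26% of all genes. elav, the pan-neuronal RNA-binding protein gene, had 2 and 7 in Simba2 (batches 1 and 2), against 0 and 0 in Simba1. The 3 with the other direction, nSyb, Rdl and fne, were named after their values were seen, and fne had 1 and 3 in Simba2, against 4 and 5 in Simba1. Muscle markers, genes of another tissue, had more at 5 of 11 and fewer at 0 (2 and 1 at equal list lengths), among them Tm1 with 5 and 5 in Simba2, against 0 and 0 in Simba1. At Tm1 the highest unpaired peaks of both batches overlapped (3R:15301219-15301540 in batch 1 and 3R:15301073-15301566 in batch 2). Glia markers had more at 1 of 10 (10%, beside 18.4% of all genes) and fewer at 0, and at equal list lengths 0 and 1. A list of 10 genes is too short to set that share apart from all genes.

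The lists of short genes were close to all genes. Ribosomal protein genes had more unpaired Simba2 peaks in both batches at 16 of 92 (17.4%) and fewer at 1, and odorant and gustatory receptor genes at 19 of 119 (16.0%) and 1, beside 18.4% and 1.35% of all genes. At equal list lengths these were 7 and 1 ribosomal genes and 5 and 8 receptor genes, so the receptor list changed direction. Among the ribosomal genes, the highest unpaired Simba2 peaks of the batches overlapped at RpS25 (3R:11214886-11215361 in batch 1 and 3R:11214931-11215432 in batch 2). These had percentiles of 97.8 and 98.0 and also reached ZnT86D. They overlapped at RpL23A too (3L:1666205-1666491 in batch 1 and 3L:1666132-1666643 in batch 2), with percentiles of 84.2 and 86.6, and not at RpS27 or RpLP0. The sugar receptor gene Gr64a likewise had overlapping peaks (3L:4026251-4026836 in batch 1 and 3L:4026181-4026686 in batch 2), which reached CG11594. Unpaired Simba1 peaks in both batches without an unpaired Simba2 peak were found at 2 list genes, RpL12 (1 of 92) and Gr28b (1 of 119), beside 0.882% of all genes. Each had 1 peak in each batch. At RpL12, which codes for a protein of the large ribosomal subunit, these peaks had percentiles of 58.5 and 64.5. RpL39, whose span overlaps that of RpL12, had 1 unpaired Simba1 peak in each batch at the same percentiles. It also had 1 unpaired Simba2 peak in batch 2 (percentile 96.0), so the count at RpL12 depends on where the gene limits lie.

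**Figure D5:**
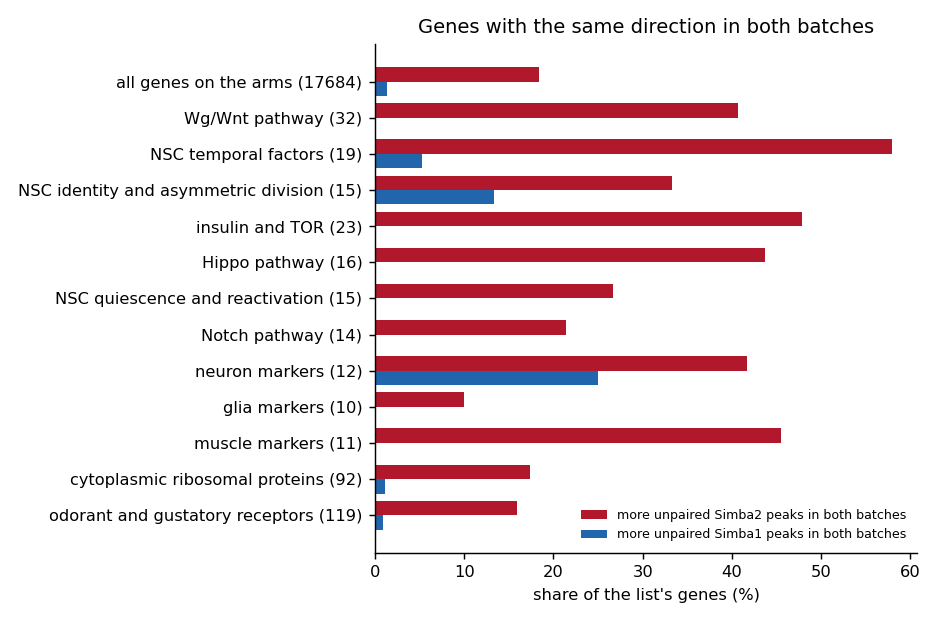
Share of each list's genes (%, bars from 0) with more unpaired Simba2 than Simba1 peaks in both batches (red) and with more unpaired Simba1 peaks in both (blue), with the number of genes in brackets and all 17684 genes at the top. The Simba2 bar is the longer one in every list, from 10% (glia markers) to 57.9% (temporal factors), beside 18.4% of all genes; at equal list lengths the order was reversed for neuron markers (2 genes and 5), glia markers (0 and 1) and receptor genes (5 and 8).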

How the data were processed

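The 6 DamID samples were grouped by their titles, and the 4 fusion libraries have a peak list each. The submitters' processing notes name bcl2fastq 2.19.0.316, FastQC, Bowtie2 and ChIPseeker, with dm6 as the build. Per the file headers, the authors ran MACS 3.0.0 on each fusion library with the same batch's Dam library as control, in single-read mode, with a q limit of 1. The deposited pileup signal is read coverage at the summit, the -log10 p and q values deposited with it come from MACS, and the deposited fold enrichment is a ratio to the local Dam background.

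From these lists, peaks on the arms were paired by an overlap of 1 bp or more within a batch, and reciprocal best pairs by overlap length were measured (Python 3.11.15, pandas 2.3.3, numpy 2.4.6, scipy 1.17.1; overlap and distance code was tested on simulated peaks). Genes were 17684 RefSeq entries on the arms of the same build, with spans but no strand, so either gene end was used where the design had preferred the start. Of 171 listed symbols 167 matched, not Dx, WntD, ban or nct; ribosomal and receptor lists were protein-coding genes matched by symbol pattern. The members and lists were chosen with earlier results of these data known.

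The labels give the batch, which pairs a Simba2 with a Simba1 library. In 13389 bins of 10 kb, deviations from the protein's mean correlated between the proteins (Pearson's r of 0.264 over bins that are not independent of each other). Shares were compared by exact two-sided permutation of 2 against 2 libraries. This test leaves out the match by batch, so the spread between batches enters it, and the differences within each batch are given beside it. Named regions were the 8 highest regions paired in both batches, the 6 most different in each direction, the 8 highest recurrent unpaired regions of each protein, up to 4 genes of each list by best unpaired peak, and grh; other genes named from a list were counted members. Alternatives were other overlaps, q limits, list lengths, rankings, distances and flanks, and each batch left out. No sequence is shown because the reference used here holds gene positions alone.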

Additional observations from a re-analysis of the deposited data

Results flagged for a closer look

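The median difference in pileup percentile at paired peaks, Simba2 minus Simba1, was 0.534 points in batch 1 and -6.03 points in batch 2. The batches thus went opposite ways with 1 pair of libraries each (with lists of equal length both were negative, at -1.51 and -15.9 points), and the difference between batches was not tested.

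Peaks on the Y chromosome, which lies outside the arms compared here, numbered 299 in Simba2 and 169 in Simba1 in batch 1, and 737 in Simba2 and 365 in Simba1 in batch 2. The labels used here do not give the sex of the larvae.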

How the results depend on the processing

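Longer Simba2 peaks at pairs and more unpaired Simba2 peaks in gene spans kept their direction in both batches under all alternatives tried, with mean length differences of 24 to 82.5 bp and span differences of 2.94 to 7.56 points. The gene end difference ranged from 0.193 points (batch 1 alone) to 12.8 (batch 2 alone), and the cause was not tested. The replicate block averages the same 2 batch differences as the main values and so repeats them by construction. They were -16.2 points for the paired share, 6.49 for gene ends, 5.25 for gene spans and 49.5 bp for length. Leaving out each batch gave -17.8 to -14.6 points for the paired share, 2.94 to 7.56 for gene spans, 80 to 84 bp for summit distance, 24 to 75 bp for length, -6.03 to 0.534 points for rank, and -1.03 to 0.773 on arm 3R, -0.181 to 0.391 on arm 4 and -0.469 to 0.785 on arm X.

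The summit distance, 82 bp as the mean of the batches, was 77 bp with an overlap of 0.5 of the shorter peak, 62.5 at q of 0.05 or lower, 46 at q of 0.001 or lower and 71.5 with lists of equal length. The rank difference, -2.75 points as the mean of the batches, was -7.96 at q of 0.001 or lower and -8.70 with equal lengths, with both batches negative in either, and 4.27 when ranked by fold enrichment, where both batches were positive (2.08 and 6.46). The share of regions with the same sign in both batches was 49.7% at q of 0.05, 54.5% at q of 0.001 (77 regions), 52.3% with equal lengths, 52.3% by fold and 49.9% by -log10 p. Genes with unpaired Simba2 peaks alone numbered 1113 at q of 0.001, 1191 with equal lengths and 1442 with no flank, and those with Simba1 alone 97 at q of 0.05, 55 at q of 0.001, 433 with equal lengths and 88 with no flank. Recurrent regions numbered 1804, 743 and 1360 for Simba2 and 257, 39 and 950 for Simba1 (q of 0.05, q of 0.001, equal lengths). The arm differences reversed to 0.116 points on 2L and -0.264 on 2R at q of 0.001, 0.514 on 3L and -0.344 on X at q of 0.05, 0.225 on 3R and -0.192 on X with equal lengths, and 0.773 on 3R, -0.181 on 4 and -0.469 on X in batch 1 alone. The causes of these changes were not tested, beyond the fewer peaks that stricter limits leave. Each protein had 2 libraries, so no comparison could reach a p below 0.333, and an unlisted peak can be a peak under the threshold.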

Other observations

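The unpaired peaks with the highest fold enrichment, picked after their values were seen, stood in Simba1 of batch 2. There 4 peaks had a fold of 80 or more, and no other list holds a peak at these places: 2 in Myo81F (3R:1905909-1906930 at 179-fold and 3R:1909363-1910138 at 88.2-fold), 1 in CG17698 (3L:23736822-23738034 at 136-fold) and 1 without a gene (3L:24579109-24579734 at 81.3-fold). The highest fold on the arms was 19.6 and 12.1 in Simba2 (batches 1 and 2), against 15.7 in Simba1 of batch 1. At sgg, the gene of the Wg pathway kinase Shaggy, an unpaired Simba2 peak of batch 1 had a fold of 7.84 (X:2643516-2644207) and overlapped a Simba2 peak of batch 2.

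Off the arms, the longest peak measured 42900 and 23004 bp in Simba2 (batches 1 and 2), against 1709 and 1505 bp in Simba1, the same order as among unpaired peaks on the arms.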
